A study of Mus musculus with 3 samples.

Results

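The genes described here are 10: Parp9, Parp10, Parp11, Parp12 and Parp14, called interferon-type below, then Parp1, Parp2, Parp3 and Parp4, and Dtx3l, which encodes the ubiquitin ligase partner of PARP9. They were taken by symbol from 55536 annotated genes, and each symbol matched 1 gene, so all 10 were measured. RNA came from the chromatin fraction of macrophages grown from bone marrow progenitors of C57BL/6J mice after 120 min with 100 ng/ml of lipid A, the part of bacterial lipopolysaccharide that TLR4 binds. Ribosomal RNA was depleted and total RNA was sequenced. There is 1 group of 3 libraries, labelled biological replicates 1, 2 and 3, with the same donor label, no stated genotype beyond the strain and no stated age. Nothing says that the libraries came from separate cultures, so spreads and p values measure only how these libraries differ, which may be technical. No unstimulated library was analysed here. The values are levels in stimulated cells and cannot show whether a gene was induced.

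PARP enzymes take ADP-ribose from NAD and attach it to proteins, DNA or RNA. PARP1 and PARP2 build chains of it at DNA breaks and PARP3 adds single units there, whereas most other members add single units or, like PARP9, have little activity of their own. Several members carry macrodomains, which bind ADP-ribose, and a group of these genes is well known to be induced by interferon in macrophages. Chromatin RNA is rich in transcripts still being made or spliced, so a level here is that of RNA on chromatin, and in bulk samples fewer cells making an RNA cannot be told apart from less RNA per cell.

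Gene totals were 19751051, 20372850 and 21984526 expected counts in replicates 1, 2 and 3, and starting RNA was 1 µg, 250 ng and 500 ng, which cannot be told apart from replicate. All 7 macrophage markers had a mean of at least 1 TPM, the deposited level per length, and no marker of T cells, B cells, neutrophils, NK cells, stroma or endothelium did. With the other quantifier, described below, Cd3d, a T cell marker, was at 7.68 TPM, Mpo, of neutrophils, at 1.05 TPM and Pdgfra, of stroma, at 1.06 TPM. Replicate 2 stood apart in 7 cytoplasmic RNA genes, which summed to 624, 3400 and 712 TPM in replicates 1, 2 and 3. These genes were listed because they had moved between these libraries, so their shift is no separate finding. Protein-coding genes held 18.0%, 23.7% and 24.3% of all TPM, so TPM differences between libraries also carry this change in composition. The tests between libraries below therefore use scaled CPM, a share of library counts after trimmed-mean (TMM) scaling, which is not per length.

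Sequences upstream of annotated starts are shown first. Of the 7 members that could be searched, 2 hold the core that interferon-activated factors are known to bind, and 1 of these is not interferon-type. In RefSeq's promoter table for GRCm38.p6, 7 members had 8 windows of 250 bases before a RefSeq start. The interferon-type genes Parp9, Parp10 and Parp14 had no window and were not searched, so whether they hold a core is not known here. The interferon-stimulated response element core GAAANNGAAA and the STAT dimer core TTCNNNGAA were searched on both strands, and the second core reads the same on either strand. Capitals below mark the matches. The first stretch runs on the plus strand from chr6:127446590-127446839 and ends at the upstream start of Parp11. The second lies on the plus strand at chr14:56575426-56575618 and ends at the start of Parp4, leaving out bases covered by exons of another gene. The third, on the plus strand at chr1:180568641-180568890, ends at RefSeq's start of Parp1, just upstream of the gene model given below, and is shown as a window with neither core.
Parp11: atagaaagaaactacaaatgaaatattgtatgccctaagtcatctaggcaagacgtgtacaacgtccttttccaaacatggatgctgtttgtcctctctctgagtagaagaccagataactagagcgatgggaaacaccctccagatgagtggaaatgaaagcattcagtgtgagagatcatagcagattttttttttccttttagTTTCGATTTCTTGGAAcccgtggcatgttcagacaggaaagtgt
Parp4: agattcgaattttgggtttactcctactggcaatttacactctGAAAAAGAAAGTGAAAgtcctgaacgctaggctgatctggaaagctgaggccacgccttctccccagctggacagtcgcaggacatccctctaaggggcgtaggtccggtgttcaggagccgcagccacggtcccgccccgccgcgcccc
Parp1: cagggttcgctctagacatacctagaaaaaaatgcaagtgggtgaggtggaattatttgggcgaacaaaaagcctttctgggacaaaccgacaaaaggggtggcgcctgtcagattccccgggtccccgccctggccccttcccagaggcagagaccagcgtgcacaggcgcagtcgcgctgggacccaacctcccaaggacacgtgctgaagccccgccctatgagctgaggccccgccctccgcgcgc
In Parp11, the capitals run from 44 to 29 bases before the start and join a response element core on the minus strand with an overlapping STAT core. In Parp4, the capitals run from 150 to 135 bases before the start and are 2 overlapping response element cores on the plus strand. The windows of Dtx3l, Parp1, Parp2, Parp3 and Parp12 and the downstream Parp11 window held neither core. Those of Dtx3l and Parp2 end at RefSeq starts inside the gene models given below, so they cover fewer than 250 bases before the starts of those models. Of 32841 windows of this length, 2.98% held the response element core and 7.02% the STAT core. A match here is a string of letters and no measured binding.

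The interferon-type genes lay above Parp1 to Parp4 as a group, with Parp14 far above every other member. Parp1 was lowest by gene TPM, and Parp2 by TPM of coding isoforms. Parp14, a macrodomain protein that adds single ADP-ribose units and is known as a partner of STAT6, lies on the minus strand at chr16:35832874-35871544 in mm10. Its RNA was at 742, 968 and 1390 TPM in replicates 1, 2 and 3 (1033 ± 329, SD, n = 3). This placed it 9th, 13th and 6th among all protein-coding genes of the 3 libraries, and it alone held 64.7% ± 0.42 (SD, n = 3) of the summed TPM of the 10 members.

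Parp9, on the plus strand at chr16:35938470-35972605, encodes the macrodomain partner of DTX3L and was at 127, 153 and 224 TPM (168 ± 50.5). Parp14 exceeded Parp9 by 2.61 ± 0.06 on the log2(TPM + 0.1) scale, with nearly the same distance in each library. Parp12, on the minus strand at chr6:39086410-39118349, encodes a zinc finger member known to restrict some viruses and was at 94.6, 123 and 182 TPM (133 ± 44.6). Parp10, on the minus strand at chr15:76231174-76243441, encodes a mono-ADP-ribosyl transferase and was at 59.0, 63.4 and 76.8 TPM (66.4 ± 9.30). These 4 genes kept 1 order, Parp14, Parp9, Parp12, Parp10, in each of the 3 libraries.

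Parp11, on the plus strand at chr6:127446840-127494261, encodes a mono-ADP-ribosyl transferase found at the nuclear envelope. It was at 22.1, 38.0 and 69.4 TPM (43.2 ± 24.1), the widest relative spread of the 10 genes and the lowest mean of the interferon-type genes. Dtx3l, on the minus strand at chr16:35926511-35939151, was at 33.5, 52.9 and 76.2 TPM (54.2 ± 21.4). By TPM all members but Parp1 were lowest in replicate 1 and highest in replicate 3.

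Of the other members, Parp4, which encodes the PARP of the vault particle, a large ribonucleoprotein, lies on the plus strand at chr14:56575619-56659794. It was at 43.1, 45.8 and 57.6 TPM (48.8 ± 7.72). Parp3, which encodes a PARP of DNA break repair, lies on the minus strand at chr9:106470322-106476949 and was at 19.4, 24.2 and 35.6 TPM (26.4 ± 8.29). The pair that makes ADP-ribose chains at breaks was lower still. Parp2, on the plus strand at chr14:50807841-50821301, was at 8.94, 16.2 and 18.0 TPM (14.4 ± 4.79). Parp1, on the plus strand at chr1:180568924-180601254, was at 5.02, 8.50 and 5.76 TPM (6.43 ± 1.83). Parp1 was the only member whose mean lay below 8.91 TPM, the mean over libraries of the median of the 8233 protein-coding genes with at least 1 TPM in every library.

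**Figure D1:**
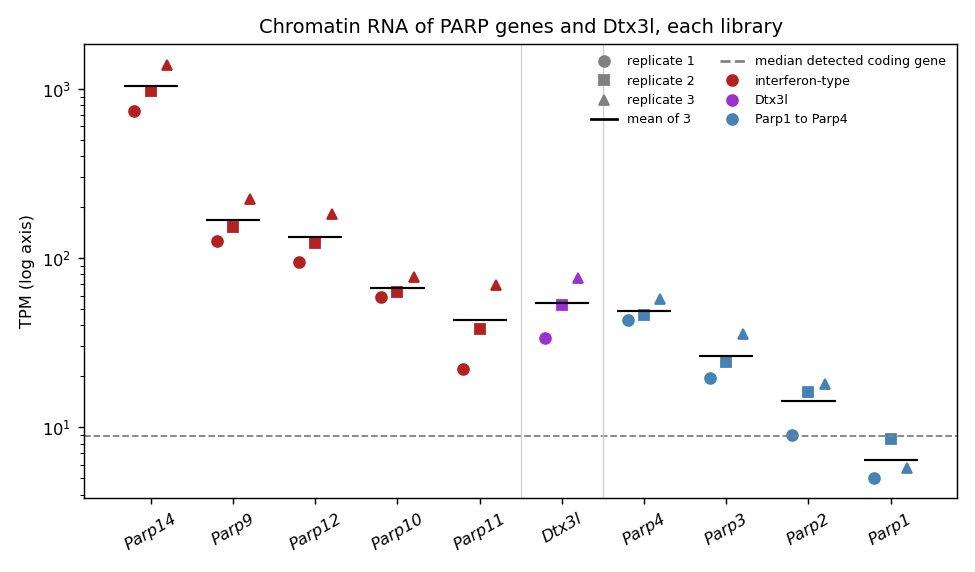
TPM on a log axis of 10 genes in each of 3 libraries (circles, squares and triangles for replicates 1, 2 and 3), with the mean as a black line and the median detected protein-coding gene as a dashed line. Interferon-type genes are at the left, Dtx3l between the grey lines and Parp1 to Parp4 at the right. Parp14 lies at 742 to 1390 TPM, and the points of Parp11 (22.1 to 69.4 TPM) span those of Parp4 (43.1 to 57.6 TPM).

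By mean TPM the order was Parp14, Parp9, Parp12, Parp10, Dtx3l, Parp4, Parp11, Parp3, Parp2, Parp1. Neighbours were called apart where their log2 difference had 1 sign in all 3 libraries and its mean exceeded 2 SD. Parp14 and Parp9, Parp9 and Parp12, Parp12 and Parp10, Parp3 and Parp2, and Parp2 and Parp1 were apart by this rule. The lowest pairs depended on the measure: with the other quantifier, a deposited table made directly from the reads, Parp3 was at 21.3, 19.3 and 35.5 TPM and Parp2 at 21.6, 19.4 and 42.4 TPM, the reverse order. By coding isoforms alone, Parp2 (1.36, 1.72 and 1.44 TPM) lay below Parp1 (3.11, 5.36 and 3.18 TPM) in every library. The middle of the order was not resolved: Parp10 and Dtx3l, Dtx3l and Parp4, Parp4 and Parp11, and Parp11 and Parp3 did not differ beyond their spread. Parp4 minus Parp11 was 0.96, 0.27 and -0.27 in replicates 1, 2 and 3, so the higher of the pair changed with the library.

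The medians of the groups were 94.6, 123 and 182 TPM for the 5 interferon-type genes, against 13.2, 19.8 and 25.3 TPM for Parp1 to Parp4. The difference of medians, interferon-type minus Parp1 to Parp4, was 2.83, 2.63 and 2.84 on the log2(TPM + 0.1) scale (2.77 ± 0.12, SD, n = 3), or 6.81-fold on that scale. It gets no p, because the members were chosen with results known. The groups overlapped, since Parp4 lay above Parp11 in replicates 1 and 2, while the other 4 interferon-type genes lay above Parp1 to Parp4 in every library. Without Parp4 the difference was 3.21, and without Parp11 it was 2.94, both chosen after seeing the data. With TPM of protein-coding isoforms only it was 3.34, and with the other quantifier it was 2.35. By coding isoforms Parp10, at 25.1, 25.9 and 32.5 TPM, lay below Parp4, at 42.3, 44.2 and 55.3 TPM, in every library, while with the other quantifier Parp11 lay above Parp4 in every library.

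The other quantifier gave 816 TPM for Parp14, 0.79 times the value above, and kept it highest. It gave Parp11 84.5 TPM, 1.96 times the value above, which put it 4th of the 10 instead of 7th. It also gave Parp9 274, Parp2 27.8 and Parp1 13.3 TPM, 1.63, 1.93 and 2.07 times the values above. These 4 genes had the largest ratios between the quantifiers among the 10.

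The genes whose TPM was closest to that of Parp14 over the 3 libraries, by Euclidean distance of log2(TPM + 0.1), were Rsad2 (distance 0.26), Lilr4b (0.34) and Lilrb4a (0.41). Rsad2, which encodes the antiviral protein viperin, was at 766, 1146 and 1461 TPM. Those closest to Parp1 were Nom1 (0.074), Klhl9 (0.074) and Galns (0.097). Nom1 was at 5.23, 8.49 and 5.95 TPM. These genes were picked by closeness of the same values, so sharing the library order of Parp14 or Parp1 is no separate finding.

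Parp14, Dtx3l and Parp9 lie together on chromosome 16, where Dtx3l and Parp9 start head to head. Their gene models overlap by 682 nt, and Parp14 ends the row 54966 nt away on the strand of Dtx3l. Parp9 exceeded Dtx3l by 1.67 ± 0.22 on the log2(TPM + 0.1) scale, higher in 3 of 3 libraries. Dtx3l has only coding isoforms annotated, whereas Parp9 has other classes too. By coding isoforms alone the gap was smaller: Parp9 was at 64.3, 72.0 and 110 TPM, and Dtx3l at 33.5, 52.9 and 76.2 TPM. There were 57.7, 79.3 and 75.4 Dtx3l counts per 100 Parp9 counts in replicates 1, 2 and 3, so the pair did not keep 1 ratio. The neighbours outside were low: Hspbap1 was at 3.96 ± 1.16 TPM beyond Parp14 and Kpna1 at 7.83 ± 0.56 TPM beyond Parp9.

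Parp9 has 2 coding isoforms with starts 541 nt apart, and both begin inside the Dtx3l model. The upstream isoform, Parp9-203, was at 32.6, 47.3 and 69.2 TPM, against 31.7, 24.7 and 40.6 TPM for the downstream isoform, Parp9-201. The upstream share was 59.8% ± 8.0 (SD, n = 3), and 75.1% ± 4.6 with the other quantifier. The share was lowest in replicate 1, where both isoforms were about equal. Reads over the shared 682 nt could come from either gene, and the strand setting of the counting is not given in the sources used here.

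**Figure D2:**
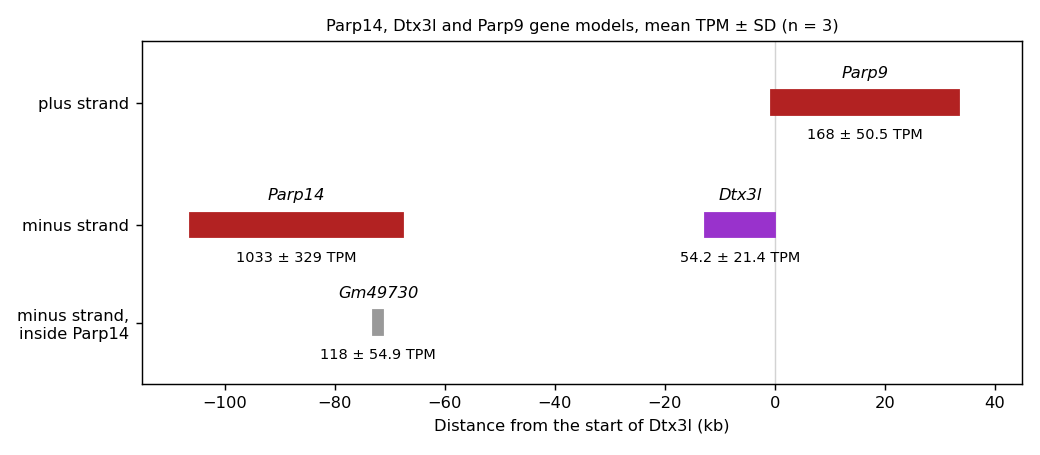
Gene models of Parp14, Dtx3l and Parp9 by distance in kb from the start of Dtx3l, one row per strand, with Gm49730, a model inside Parp14, on its own row. Labels give mean TPM ± SD of 3 libraries, and Parp14, at 1033 TPM, is the highest of the row.

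A model inside Parp14 on the same strand, Gm49730, whose class (TEC) awaits experimental evidence, was at 69.2, 108 and 178 TPM. It shares only 110 of its 1773 nt with exons of Parp14 isoforms. Its mean, 118 ± 54.9 TPM, lay between those of Parp12 and Parp10, and it was highest in replicate 3 like Parp14. Inside Parp11, Gm43633, a model of the same class, shares no base with a Parp11 exon, and it was at 4.55, 8.34 and 13.8 TPM. It was lowest in replicate 1 and highest in replicate 3 as Parp11 was. By TPM all members but Parp1 had this order, so it is not particular to the host genes. Whether RNA of either model belongs to its host gene was not tested.

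Other neighbours touch the remaining members. Parp2 starts 73 nt from Rpph1, the RNA of ribonuclease P, which runs the other way and was at 1490, 8027 and 2304 TPM, highest in replicate 2. Parp3 overlaps Rrp9 on the opposite strand by 987 nt, with only 20 nt of shared exon. Parp10 overlaps Plec on the same strand by 1401 nt. Plec encodes a cytoskeletal linker and was at 196 ± 33.4 TPM, above Parp10, and it shares 205 nt of exon with the nonsense-mediated decay isoform Parp10-205 alone. Gm15564, antisense to Parp9, was at 0.14 TPM in the gene table and at 19.4 TPM with the other quantifier. Gm16573, antisense in Parp4, was at 3.71 and 19.8 TPM by the same measures, so both antisense models were higher with the other quantifier. Gm16573 shares 335 of its 1302 nt with exons of Parp4-201, while Gm15564 shares none with exons of Parp9.

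Isoforms annotated with a retained intron were assigned much of the TPM of most members. In Parp4 and Dtx3l the TPM was nearly or wholly assigned to coding isoforms. Protein-coding isoforms held 41.6% of the TPM of Parp14, 48.8% of Parp9, 48.7% of Parp12, 41.9% of Parp10 and 22.2% of Parp11. They held 96.8% of the TPM of Parp4, 60.4% of Parp1, 38.9% of Parp3 and 10.5% of Parp2. Dtx3l has no retained intron isoform in the annotation, so its share is fixed by the annotation. The retained intron isoform of Parp4 holds only 147 nt of intron. The coding share thus varied within both groups, and its group medians were 41.9% for the interferon-type genes and 49.7% for Parp1 to Parp4.

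**Figure D3:**
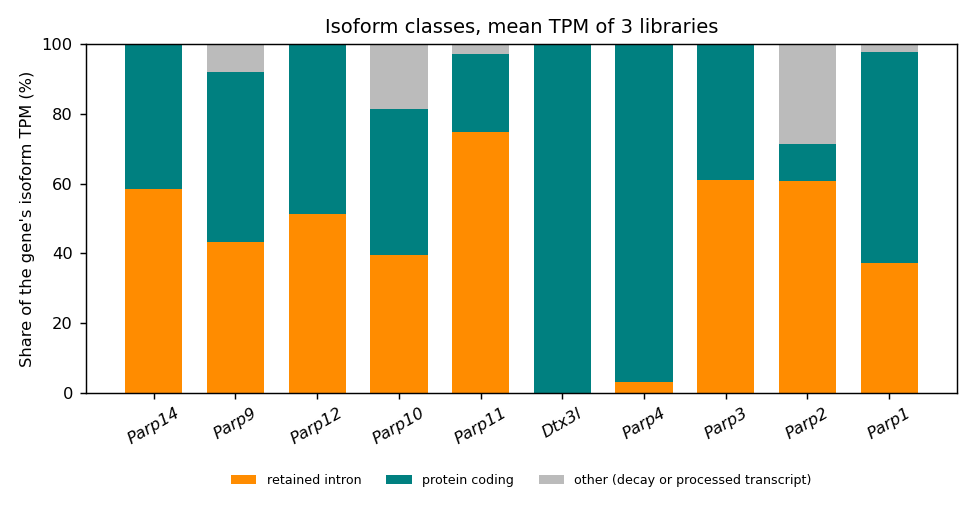
Share in percent of the TPM of each gene held by retained intron isoforms (orange), protein-coding isoforms (green) and other isoforms (grey), from mean TPM of 3 libraries. Protein-coding isoforms hold 96.8% in Parp4 and 10.5% in Parp2. Dtx3l has no annotated retained intron isoform.

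The log2 ratio of retained intron over protein-coding TPM, each with 0.1 added, was tested against 0 with limma (moderated test, Benjamini-Hochberg over 5603 genes). Retained intron isoforms exceeded coding isoforms in 1084 genes (19.3%) and fell short of them in 1666 genes (29.7%). Of the 9 members tested, 2 were above and 1 below, counts too few to set the members apart from all genes. The median ratio of all tested genes was itself -0.39, -0.45 and 0.17 in replicates 1, 2 and 3, highest in replicate 3, and its part in differences between libraries was not tested.

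In Parp11, retained intron isoforms were at 15.8, 29.2 and 51.9 TPM, against 4.70, 8.02 and 16.0 TPM for its coding isoforms. The log2 ratio was 1.73, 1.85 and 1.69 (1.76, SE 0.26, limma adjusted p = 0.0040). It was nearly the same in all 3 libraries although the level of the gene was not. The isoform with the highest mean TPM of these, Parp11-210, is a single exon of 1759 nt, of which 1638 nt lie in an intron of the coding isoform Parp11-203, and it was at 11.9 ± 8.02 TPM, against 11.1 ± 4.84 TPM for Parp11-207, which the other quantifier put higher (8.59 TPM for Parp11-210, 17.5 TPM for Parp11-207). In Parp2, retained intron isoforms were at 6.36, 7.54 and 12.3 TPM, against 1.36, 1.72 and 1.44 TPM for its coding isoform. The ratio was 2.41 (SE 0.31, limma adjusted p = 0.0028), with the coding isoform at nearly 1 level in the 3 libraries. The highest retained intron isoform of Parp2, Parp2-205, is only 503 nt long. Its 3.63 ± 1.13 TPM rested on 19.5, 16.3 and 28.0 expected counts in replicates 1, 2 and 3. With isoforms of at least 1000 nt only, a setting chosen after seeing the data, both ratios were smaller, 0.88 in Parp11 (limma adjusted p = 0.033) and 1.29 in Parp2 (limma adjusted p = 0.0068).

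In Parp4 the ratio ran the other way. Its retained intron isoform was at 0.76, 1.55 and 2.31 TPM, against 42.3, 44.2 and 55.3 TPM for Parp4-201, a coding isoform of 35 exons and 6387 nt. The ratio was -4.96 (SE 0.33, limma adjusted p = 7.0e-04), and 99.2% of the tested genes had a higher one. The retained intron isoform holds 147 nt of intron, so most introns of Parp4 are in no annotated isoform.

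Parp14 has 2 retained intron isoforms, at 392, 572 and 847 TPM together, against 350, 397 and 543 TPM for its coding isoform Parp14-201 of 17 exons. The ratio was 0.44 (SE 0.27, limma adjusted p = 0.22), above 0 in 3 of 3 libraries but not past the threshold. One of them, Parp14-202, is 580 nt long with 224 nt of intron, and its short length raises its TPM: 335 ± 81.9 TPM rested on 2289, 2150 and 3117 expected counts. The other, Parp14-203, with 1665 nt of intron in 4026 nt, was at 128, 255 and 422 TPM. With isoforms of at least 1000 nt only, the ratio of Parp14 was -0.82 (limma adjusted p = 0.063), so its sign rests on the short isoform.

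The remaining 5 members did not pass. The ratio was 0.00 in Parp12, where 1 isoform of 1009 nt with 764 nt of intron was at 68.3 ± 30.4 TPM, against 64.8 ± 14.5 TPM for the coding isoform. It was -0.08 in Parp10, -0.19 in Parp9, 0.58 in Parp3 and -0.65 in Parp1, with limma adjusted p values of 0.81, 0.57, 0.14 and 0.11. In Parp9, a decay isoform of 468 nt, Parp9-207, was at 0.80 TPM in the transcript table above and at 77.6 TPM with the other quantifier, the largest such gap among isoforms of this gene. With the other quantifier Parp10 (1.11), Parp3 (0.89) and Parp1 (0.76) were also above 0, at limma adjusted p values of 0.0059, 0.022 and 0.026.

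**Figure D4:**
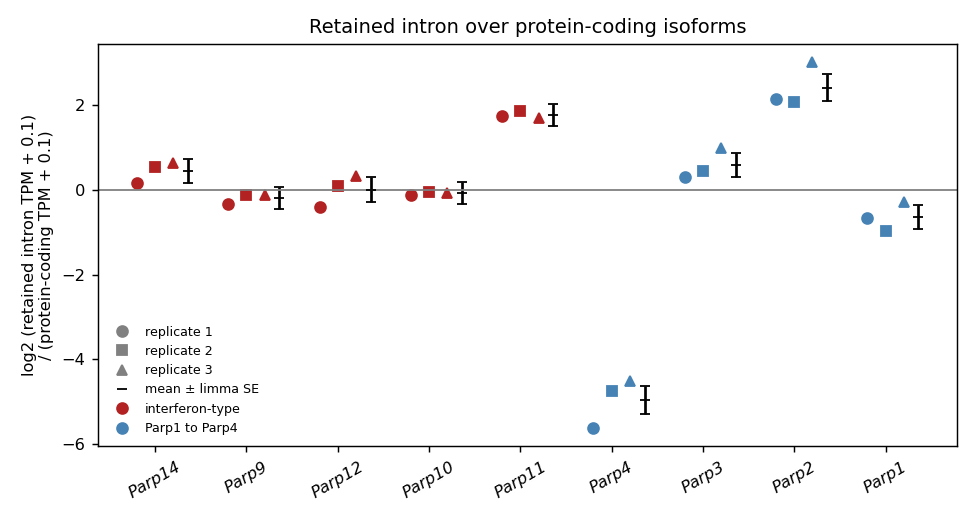
Log2 ratio of retained intron over protein-coding TPM, each with 0.1 added, for the 9 members that have both, in 3 libraries (circles, squares and triangles for replicates 1, 2 and 3), with mean and limma SE in black. Parp11 (1.76) and Parp2 (2.41) lie above 0 and Parp4 (-4.96) below it.

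Parp11 also has coding isoforms from starts 6835 nt apart. The upstream start is that of Parp11-202, whose window with the capitals is printed above, and it gave 1.87, 3.40 and 6.83 TPM, against 2.83, 4.62 and 9.16 TPM for Parp11-201 and Parp11-203 from the downstream start. The upstream share of these was 39.8%, 42.4% and 42.7% (41.6% ± 1.6), and 48.3% ± 4.7 with the other quantifier. Both starts were lowest in replicate 1 and highest in replicate 3, at a nearly constant share. Another coding isoform, Parp11-204, has a start of its own between these and is not counted in the shares. It was listed at 0 in all libraries of this table, but with the other quantifier it was at 9.48 TPM, above Parp11-202 (3.63 TPM), Parp11-203 (2.84 TPM) and Parp11-201 (1.02 TPM).

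Counts of 9 of the 10 members varied between the 3 libraries beyond counting error (chi-square test against TMM-scaled library sizes, Benjamini-Hochberg over 14200 genes), against 9769 genes, or 68.8%, of all tested. The exception was Parp2, at 11.2, 11.8 and 11.7 scaled CPM in replicates 1, 2 and 3 (adjusted p = 0.85), from only 201, 242 and 281 expected counts. The test compares these libraries and not conditions. The size of the difference separates the members more than the call does. The ratio of highest to lowest library in scaled counts had a median of 1.56 over all tested genes. Only Parp11 (2.43), Parp1 (1.67) and Dtx3l (1.61) lay above that median. Parp14 (1.28), Parp9 (1.34) and the remaining members varied less than the median gene.

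Parp11 differed most, at 32.7, 46.4 and 79.4 scaled CPM. Replicate 3 over replicate 1 was 2.43, and 5.49% of the tested genes had a larger ratio. By highest over lowest library, 16.8% of them exceeded Parp11. For Dtx3l, at 198, 251 and 320 scaled CPM, replicate 3 over replicate 1 was 1.61. These were the 2 members called with replicate 1 lowest and replicate 3 highest, against 18.8% of all genes. They kept that order with DESeq2 size factors, with TPM over protein-coding genes alone and with the other quantifier, where the ratios were 1.79 and 1.21.

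Parp14 was at 4082, 4023 and 5138 scaled CPM, Parp9 at 344, 316 and 425, and Parp12 at 256, 231 and 291. With Parp3, Parp11 and Dtx3l these made 6 members called highest in replicate 3, against 25.0% of all genes. This does not hold under every scaling: Parp14, Parp12 and Parp3 were highest in replicate 1 with the other quantifier, where 3 members were highest in replicate 3. Parp10, at 180, 147 and 163 scaled CPM, and Parp4, at 344, 280 and 311, were highest in replicate 1 in both tables.

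Parp1 was at 15.9, 19.1 and 11.4 scaled CPM and was the 1 member called highest in replicate 2, against 24.3% of all genes. The 7 cytoplasmic RNAs were also all called highest in replicate 2, but they were listed because they had moved between these libraries. Their part in the result of Parp1 was not tested. The call of Parp1 was lost without replicate 3 (adjusted p = 0.20), and that of Parp3 without replicate 2 (adjusted p = 0.11).

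**Figure D5:**
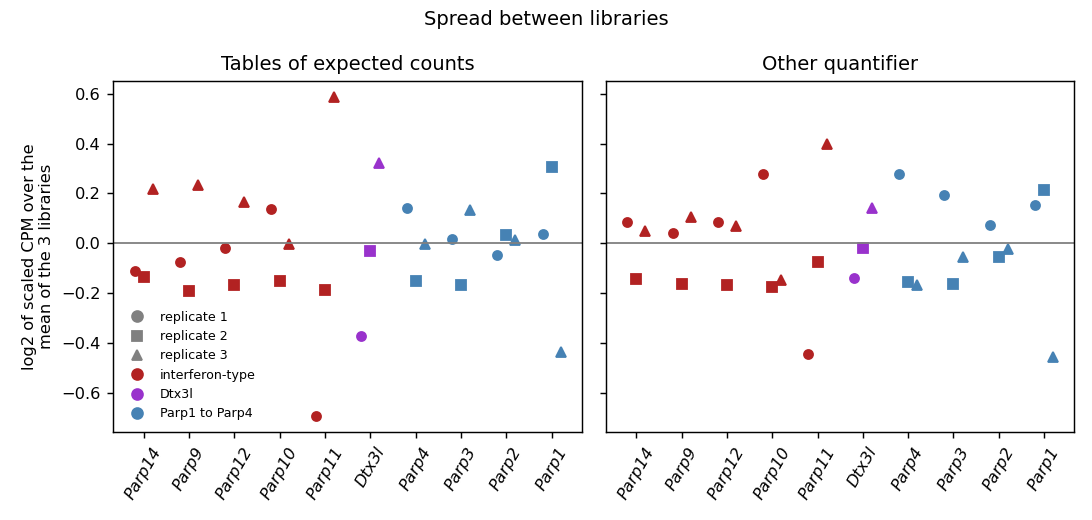
Log2 of scaled CPM over the mean of the 3 libraries for 10 genes (circles, squares and triangles for replicates 1, 2 and 3), from the tables of expected counts at left and from the other quantifier at right. In both panels Parp11 and Dtx3l have replicate 1 lowest and replicate 3 highest, while Parp14, Parp12 and Parp3 have another highest library at right.

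The remaining 7 PARP genes had a median of 28.4 ± 1.99 TPM, and 6 of them had a mean of at least 1 TPM. Zc3hav1, which encodes a zinc finger antiviral protein with an inactive PARP domain, was at 96.7, 115 and 159 TPM (124 ± 32.0), close to Parp12. Tiparp, induced by the aryl hydrocarbon receptor, was at 107 ± 32.1 TPM and Parp8 at 73.8 ± 19.8 TPM. Parp16, of the endoplasmic reticulum, was lowest at 0.30 ± 0.04 TPM. High chromatin RNA was thus not limited to the interferon-type genes named by the contrast.

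Genes that serve or undo ADP-ribosylation were below Parp14, as nearly all protein-coding genes were. Of 9 cofactor and eraser genes, 7 had a mean of at least 1 TPM, and the median was 3.49 ± 1.23 TPM. Parg, which encodes the enzyme that breaks ADP-ribose chains, was at 31.2, 39.4 and 42.4 TPM (37.7 ± 5.78), above both Parp1 and Parp2. Hpf1, the cofactor that directs PARP1 and PARP2 to serine, was at 10.7 ± 4.30 TPM, Nudt9, a hydrolase of ADP-ribose, at 16.5 ± 1.72 TPM, and the macrodomain gene Macrod2 was lowest at 0.063 TPM from 0, 1 and 4 counts. Nudt16, at 1.79 TPM, was at 38.4 TPM with the other quantifier, close to Parg at 39.0 TPM by that measure. Of 7 reader and repair genes, 6 had a mean of at least 1 TPM. H2afy, which encodes the macrodomain histone macroH2A1, stood at 140 ± 41.0 TPM, Polb, a repair polymerase, at 10.5 ± 2.80, Xrcc1, a repair scaffold, at 8.44 ± 2.15, and Aplf, a histone chaperone of repair, at 0.23 ± 0.15 TPM.

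The 9 genes listed for NAD, the substrate, which make or consume it, had a median of 1.40 ± 0.46 TPM, and 6 of them had a mean of at least 1 TPM. Nampt, the rate-limiting enzyme of NAD salvage, stood at 63.3, 64.4 and 93.5 TPM (73.8 ± 17.1), far above Nmrk1 (5.43 ± 1.16) and Nadsyn1 (3.32 ± 1.57). With the other quantifier Nampt, Nmrk1 and Nadsyn1 were at 173, 7.34 and 5.25 TPM. Nmnat2 had 0 counts in every library, which allows up to 0.152, 0.147 and 0.136 CPM (3 counts, counting error only). Of the remaining Deltex genes, relatives of Dtx3l that are also ubiquitin ligases, Dtx2 was at 17.9 ± 4.04, Dtx4 at 16.4 ± 4.23 and Dtx3 at 11.7 ± 1.07 TPM, and Dtx1 at 0.013 TPM from 0, 1 and 2 counts. Dtx3l, at 54.2 TPM, was above each of them in every library.

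All 8 interferon signalling genes had a mean of at least 1 TPM, with a median of 77.8 ± 11.9 TPM. Irf1, a transcription factor of interferon responses, was at 439, 537 and 629 TPM (535 ± 94.8), Stat2, a signal transducer of type I interferon receptors, was at 397 ± 53.5 TPM, and Irf9, a DNA-binding interferon regulatory factor, was lowest at 38.8 ± 5.11 TPM. Parp14 was above all 8 in every library. Of the interferon-type PARP genes, 4 of 5 were called highest in replicate 3, against 0 of the 8 signalling genes and 25.0% of all genes. Of the signalling genes 7 varied between libraries. The difference between the lists was not tested, and the other quantifier had fewer such PARP genes.

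By the same 2 tests, the lists can be set beside the members. Counts varied in 5 of 7 remaining PARP genes, 4 of 7 tested cofactor and eraser genes, 5 of 7 reader and repair genes, 2 of 3 tested Deltex genes and 4 of 7 tested NAD genes, against 68.8% of all genes. Retained intron isoforms were above and below coding isoforms in 1 and 0 of 4 remaining PARP genes, in 2 and 1 of 3 cofactor and eraser genes, and in 1 and 1 of 4 reader and repair genes. They were above and below in 0 and 1 of 2 Deltex genes, in 1 and 1 of 3 NAD genes, and in 0 and 2 of 6 interferon signalling genes, against 19.3% and 29.7% of all genes. With so few members in each list, these counts are descriptions of the lists.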

How the data were processed

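The members, lists and tests were chosen with earlier results of these data known. Per the deposited notes, expected counts and TPM of genes and transcripts were made by the authors from transcriptome alignments to mm10 with GENCODE M21. A further table deposited by the authors, called the other quantifier, holds estimated counts with TPM and was derived from reads without those alignments. The sources used here do not name aligner, quantifiers, versions or strand setting. The upper interval bounds deposited by the authors, entered as a signal, were not used.

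From these tables, 55536 of 81881 gene entries matched the annotation, and unmatched entries, which held 0.845%, 0.282% and 0.179% of expected counts in replicates 1, 2 and 3, were left out. Levels are TPM per library with mean and SD. Rounded expected counts were tested for variation in 14200 genes with a mean of at least 10 (chi-square, TMM factors of edgeR 4.0.16). Log2 isoform ratios, with 0.1 TPM added, were tested with limma 3.58.1 in 5603 genes averaging at least 50 counts. The threshold was an adjusted p of 0.05. Both tests were also run on simulated data, with counts holding counting error alone and ratios the same spread in all genes. That check cannot show how the tests behave at the spread of these libraries. DESeq2 1.42.0 gave alternative size factors in R 4.3.3, and tables were joined in Python. Named genes are all 10 members, the 3 highest and the 1 lowest by mean TPM of each list, and the 3 protein-coding genes nearest to Parp14 and to Parp1. A gene of the interferon signalling list that this rule names is not reported here. Neighbouring and overlapping genes were named after the annotation was seen, and Nudt16 for its gap between the quantifiers. Alternatives are given in the closing section.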

Additional observations from a re-analysis of the deposited data

How the results depend on the processing

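Levels of all 10 members moved by less than 1 SD with the posterior mean TPM; leaving out 1 of 3 replicates cannot move a mean by that much and says nothing of stability. They moved by more than 1 SD in 5 members with the other quantifier and in 8 with coding isoforms only, a setting chosen after seeing the data, and in 10 with TPM over protein-coding genes alone, which shrinks the denominator. The contrast kept its direction throughout: it was 2.35 with the other quantifier, 3.23 with scaled CPM not per length, 2.94 with group means and 2.29 with Dtx3l added, 3.34 with coding isoforms, 2.94 without Parp11 and 3.21 without Parp4 (the last 3 added after seeing the data), 2.70 with 1 TPM added in place of 0.1, and 2.73 to 2.84 with 1 replicate left out.

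Genes with retained intron isoforms above coding isoforms numbered 1876 with the other quantifier, 669 with isoforms of at least 1000 nt (added after seeing the data) and 632 to 949 with 1 replicate left out; those below numbered 934 to 1817 with 1 replicate left out. With 1 TPM added, 1173 were above and 1719 below, and with a mean of at least 10 counts, 1153 and 1819. Single ratios changed sign for Parp14 (-0.82) and Parp3 (-0.18) with isoforms of at least 1000 nt, for Parp9 (0.47), Parp10 (1.11) and Parp1 (0.76) with the other quantifier, and for Parp12 with 1 replicate left out (-0.15 to 0.20); the cause was not tested. With isoforms of at least 1000 nt, Parp9 was at -1.63 (limma adjusted p = 0.0017), and Parp4 and Parp1 could not be fitted. Genes whose counts varied numbered 9656 with DESeq2 size factors, 10519 with a mean of at least 1 count, 13598 with the other quantifier and 6687 to 7755 with 1 replicate left out. Low counts limit Parp1 and Parp2 most. No paired analysis was possible because there is 1 group.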
